A study of Homo sapiens with 6 samples.

Results

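The kinesin and tubulin genes are the 66 rows, of 62703 in the deposited count table, whose symbol is that of a kinesin motor (KIF or KIFC followed by its number) or of an alpha, beta or gamma tubulin. By role they comprised 14 mitotic kinesins, 17 transport kinesins, 12 ciliary and other kinesins, 9 alpha tubulins, 10 beta tubulins, 2 gamma tubulins and 2 tubulin pseudogenes. The data are messenger RNA libraries of HGC-27, a long-used line of human gastric cancer cells, kept in RPMI medium and 10% fetal bovine serum. 3 libraries came from cells with an shRNA against GXYLT2 (shGXYLT2, genotype given as GXYLT2 knockdown) and 3 from cells with a control shRNA (shControl, genotype given as WT). The labels do not say whether the lines were clones or pools, or whether each library had its own culture, so every p-value rests on a spread between samples that may be technical. GXYLT2 encodes an enzyme that extends glucose on Notch EGF repeats with xylose, and the question here is whether the mitotic motors, the transport motors and the microtubule subunits differed between knockdown and control cells.

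Kinesins are motor proteins that turn ATP into movement along microtubules, which are polymers of alpha- and beta-tubulin dimers that start from rings holding gamma-tubulin. Mitotic kinesins build and shorten the spindle, move chromosomes and close the midbody, and in cycling cells their transcripts are highest in G2 and M phase. Transport kinesins carry vesicles, mitochondria and other cargo at any stage of the cycle, and several of them are best known from axons and cilia. Tubulin isotypes differ mainly in their C-terminal tails, and their messenger RNAs are known to be degraded when free tubulin accumulates.

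The promoters of the mitotic kinesins often held letters that were less common among promoters as a whole, and these are shown because the gene names did not use them. In the RefSeq promoter table (build GRCh38.p14), 54 of the 66 members had a sequence of 300 bases, 250 before and 50 after a gene start. The letters searched, on both strands, were TTTGAA and TTCGAA, known from the CHR element that restrains many G2 and M genes outside those phases, and CCAAT, the core of NF-Y sites. TTTGAA or TTCGAA stood in 11 of 14 mitotic kinesin promoters (78.6%), in 1 of 12 transport kinesin promoters (8.33%) and in 16.6% of all 27305 promoters. CCAAT stood in 11 of 14 mitotic kinesin promoters (78.6%), in 3 of 12 transport kinesin promoters (25%) and in 35.7% of all promoters. It was not limited to mitotic motors among the members, since it also stood in 6 of 9 alpha tubulin promoters (66.7%), 4 of 9 beta tubulin promoters (44.4%) and both gamma tubulin promoters. Of these tubulins, TUBA3C, TUBA3D, TUBA3E, TUBA4B and TUBB8B had at most 7 counts in any library. KIF2B, KIF2C and KIF20A held neither TTTGAA nor TTCGAA. A match describes these letters only, and none was tested as a binding site.

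The windows below show the searched letters in capitals, each on the strand of its gene, so that TTCAAA is TTTGAA read from the other strand; positions count from the gene start as 1, with no position 0. KIF11 (position -28) lies at chr10:92593090-92593119 on the plus strand, KIF14 (position 2) at chr1:200620733-200620762 on the minus strand, KIF22 (position -27) at chr16:29790712-29790741 on the plus strand, KIF4A (position -34) at chrX:70290058-70290087 on the plus strand, and its intronless copy KIF4B (position 4) at chr5:155013746-155013775 on the plus strand. The KIF23 window, at chr15:69414273-69414301 on the plus strand, marks a CCAAT read from the other strand and runs into the TTTGAA beside it. The transport kinesin KIF5B had its match farther out, at position -140 (chr10:32056548-32056577, minus strand), and KIF3B had a CCAAT at position -78 (chr20:32277561-32277589, plus strand).
KIF11: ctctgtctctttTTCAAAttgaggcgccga
KIF14: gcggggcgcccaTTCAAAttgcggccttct
KIF22: ggcaccggggaaTTCGAAtgggagaggcgg
KIF4A: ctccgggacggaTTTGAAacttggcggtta
KIF4B: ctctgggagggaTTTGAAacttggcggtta
KIF23: ggacgggcgctgATTGGcccgtttgaaat
KIF5B: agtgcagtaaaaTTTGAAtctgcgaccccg
KIF3B: tctgctcgtgtgCCAATaaagttattgaa

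Library totals were 22188073 to 24898425 estimated counts in shGXYLT2 and 17291138 to 22540099 in shControl. GXYLT2 stood at 5.27, 6.27 and 5.34 CPM (counts scaled to library size with TMM factors) in shGXYLT2 libraries and at 20.7, 22.8 and 20.2 CPM in shControl libraries, 73.5% lower (p = 0.1 by an exact two-sided permutation test, which cannot go lower with 3 libraries a group). In the fit of all tested genes its log2 fold change was -1.91 (edgeR adjusted p = 6.3e-10). The labelled gastric cancer cell carried few epithelial transcripts: EPCAM averaged 0.109 CPM in shGXYLT2 and 0.151 CPM in shControl, KRT20 was at 0 in all 6 libraries, and the 8 epithelial markers summed to 4.96 to 5.55 CPM in shGXYLT2 and 5.15 to 6.59 CPM in shControl (sums over several genes, here and later, are scaled to library totals alone). The 4 fibroblast markers summed to 476 to 514 CPM in shGXYLT2 against 372 to 378 CPM in shControl. DCN and LUM made up nearly all of this sum and both rose, while PDGFRB had a log2 fold change of -0.90 (edgeR adjusted p = 0.0806) and FAP one of -0.05 (edgeR adjusted p = 0.853); the part of these markers in the results on kinesins and tubulins was not tested. The endothelial markers PECAM1, CDH5 and KDR were at 0 in all libraries.

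Of the 66 members, 49 passed the filter on low counts, 35 of 43 kinesins and 14 of 23 tubulins, and entered the test. The other 17 had at most 7 counts in any library. KIF2B, KIF19, KIF28P, TUBA3C and TUBB7P had 0 counts in all 6 libraries, and KIF5A, KIF5C, KIF6, KIF12, KIF25, TUBA3D, TUBA3E, TUBA4B, TUBB8, TUBB8B, TUBA5P and TUBG1P had a few. The test called 6 of 49 members (12.2%), 2 higher and 4 lower in shGXYLT2 (edgeR's quasi-likelihood fit, p adjusted by Benjamini-Hochberg, below 0.05). Among all 15693 tested genes 12.2% were called, 5.31% higher and 6.84% lower, so the share of called members was that of the background. Values of the 2 groups did not overlap in 17 members (34.7%), against 30.4% of all tested genes. The median log2 fold change was -0.02 over the 49 members and -0.0057 over all tested genes.

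**Figure D1:**
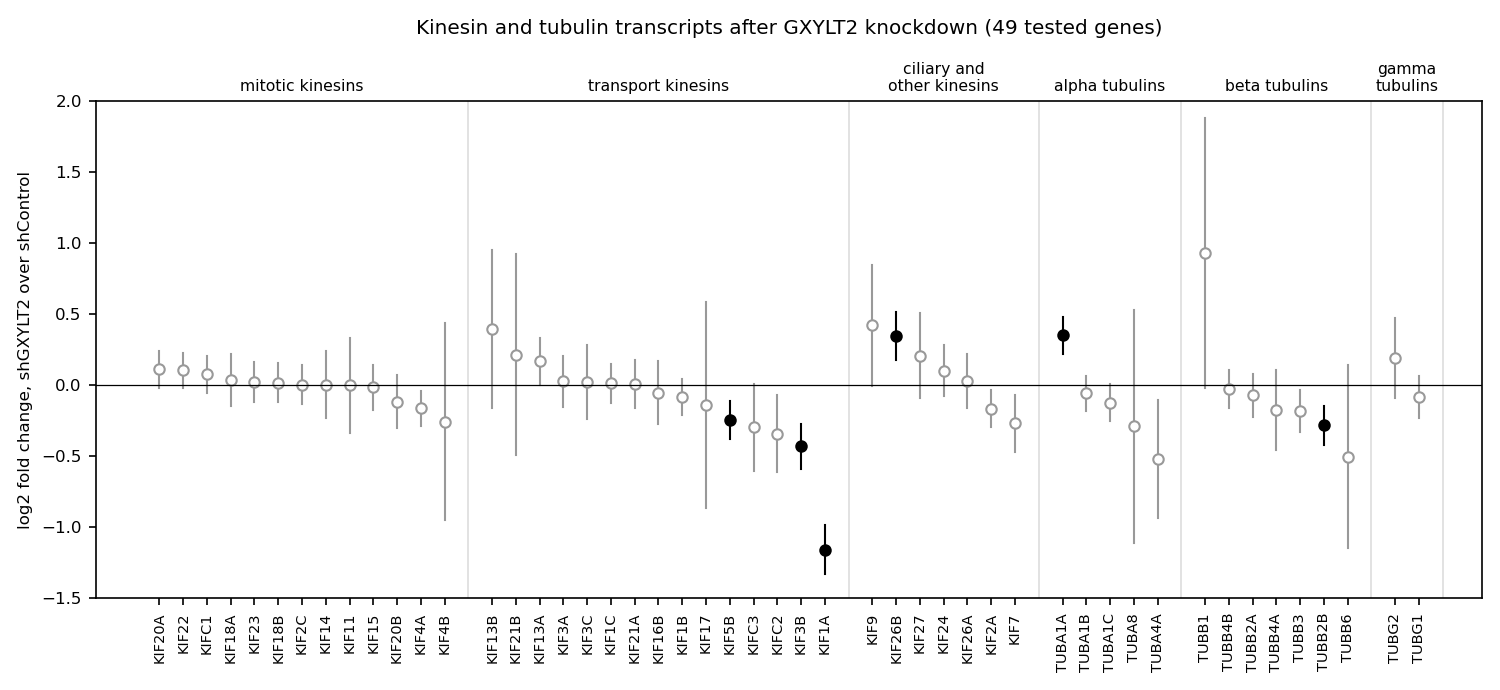
Log2 fold change of shGXYLT2 over shControl (vertical axis) for the 49 tested kinesin and tubulin genes, grouped by role, with 95% confidence intervals as bars; filled points passed the edgeR test. The filled points are KIF1A, KIF3B, KIF5B and TUBB2B below 0 and KIF26B and TUBA1A above 0, while no mitotic kinesin is filled.

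The mitotic kinesins stayed close to their control levels. None of the 13 tested members was called by edgeR's quasi-likelihood test, by DESeq2 or by limma-voom, and 1 of them, KIF4A, had an unadjusted p below 0.05 (edgeR), against 25.5% of all tested genes. Their median log2 fold change was 0.0044. For the 12 members with at least 2 CPM in every library, the log2 fold changes ran from -0.16 to 0.11. Their 95% intervals lay between -0.34 and 0.33, or within 1.26-fold in either direction. Each interval is for 1 gene, so the 12 do not hold jointly at 95%, and the spread behind them may be technical.

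By level per length, counted as CPM per kilobase of the deposited gene length and averaged over all 6 libraries, KIF22, KIF11 and KIF20A led the mitotic kinesins at 58.2, 52.7 and 51.2. KIF22, a chromosome-bound motor that pushes chromosome arms toward the spindle equator, had 129, 119.5 and 131 CPM in shGXYLT2 and 118, 119 and 117 CPM in shControl. All 3 shGXYLT2 values stood just above the control values, and the log2 fold change of 0.10 (SE 0.06) had an edgeR adjusted p of 0.295. KIF20A, a motor of the central spindle needed for cytokinesis, had 162, 157 and 174 CPM in shGXYLT2 and 152, 161 and 144 CPM in shControl, which overlapped (edgeR adjusted p = 0.267). KIF23, the motor of the centralspindlin complex at the midbody, had 183, 195 and 161 CPM in shGXYLT2 and 178, 179 and 173 CPM in shControl (edgeR adjusted p = 0.868).

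KIF11, the bipolar motor known as Eg5 that slides spindle poles apart, was the mitotic kinesin with the highest CPM, and its shGXYLT2 libraries lay far apart. It had 283, 304 and 206 CPM in shGXYLT2 and 269, 254 and 270.4 CPM in shControl. shGXYLT2 replicate 3 was the lowest of the 6 libraries, while the other 2 shGXYLT2 libraries were the highest. Its log2 fold change was -0.0011 (SE 0.14, edgeR adjusted p = 0.997). Without shGXYLT2 replicate 3 it was 0.15 with an edgeR adjusted p of 0.0389, so that 1 library decides this value. KIF14, a midbody motor that also had its lowest value in that library, had 126, 126 and 95.2 CPM in shGXYLT2 and 115, 104 and 127 CPM in shControl (edgeR adjusted p = 0.992).

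KIF4A, a chromosome-bound motor that sets the length of the central spindle, had 142, 137 and 139.9 CPM in shGXYLT2 and 164, 155 and 150.1 CPM in shControl. The 3 shGXYLT2 values lay below all 3 control values. The log2 fold change was -0.16 (SE 0.058, edgeR adjusted p = 0.0777); with offsets for GC content and length its adjusted p was 0.0133, and without shGXYLT2 replicate 3 it was 0.0357. KIF4B, the intronless copy of KIF4A, was at most 1.46 CPM in any library, and reads of the 2 copies may have been split by the counting; summing them gave a log2 fold change of -0.16 with an edgeR adjusted p of 0.0765. KIF4A also overlaps PDZD11 on the opposite strand by 425 bases, and PDZD11 reads could not be told apart from those of KIF4A if the counting ignored strand.

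The remaining mitotic motors had groups that overlapped. KIFC1, the minus-end motor that clusters centrosomes, averaged 102 ± 5.21 CPM in shGXYLT2 and 96.8 ± 3.02 CPM in shControl (SD, n = 3 each). KIF2C, which takes microtubule ends apart at the kinetochore, averaged 110.1 ± 4.47 CPM in shGXYLT2 and 109.8 ± 7.63 CPM in shControl. KIF18A, which damps chromosome movements, averaged 51.5 ± 5.42 CPM in shGXYLT2 and 50.1 ± 5.58 CPM in shControl, and its relative KIF18B averaged 97.5 ± 6.74 CPM in shGXYLT2 and 96.2 ± 1.93 CPM in shControl. KIF20B, a motor of late cytokinesis, averaged 118 ± 9.50 CPM in shGXYLT2 and 128 ± 17.2 CPM in shControl. KIF15, which backs up KIF11 in the spindle, averaged 39.7 ± 3.08 CPM in shGXYLT2 and 40.1 ± 1.6 CPM in shControl. CENPE, the kinetochore kinesin that the naming rule leaves out, averaged 76.1 ± 7.43 CPM in shGXYLT2 and 91.5 ± 14.3 CPM in shControl (log2 fold change -0.27, edgeR adjusted p = 0.121).

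The deviations of the mitotic motors correlated with the base composition and length of their transcripts in some libraries and less in others. Over the 12 mitotic kinesins with at least 2 CPM, the log2 deviation from the shControl mean correlated with GC content at r = 0.834 in shGXYLT2 replicate 3, against 0.224 and -0.41 in shGXYLT2 replicates 1 and 2. In the shControl libraries, whose deviations from their own mean sum to about 0, r was -0.358, 0.707 and -0.682. With log2 length, r in shGXYLT2 replicate 3 was -0.836. Over 31 kinesins of all roles the correlation with GC content in that library was 0.177, and over 12561 genes of all kinds it was 0.263, and in shGXYLT2 replicate 2 it was -0.304. These are correlations across genes, which are not independent replicates. The part of GC content in the values of single kinesins was not tested beyond the fit with GC content and length offsets.

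**Figure D2:**
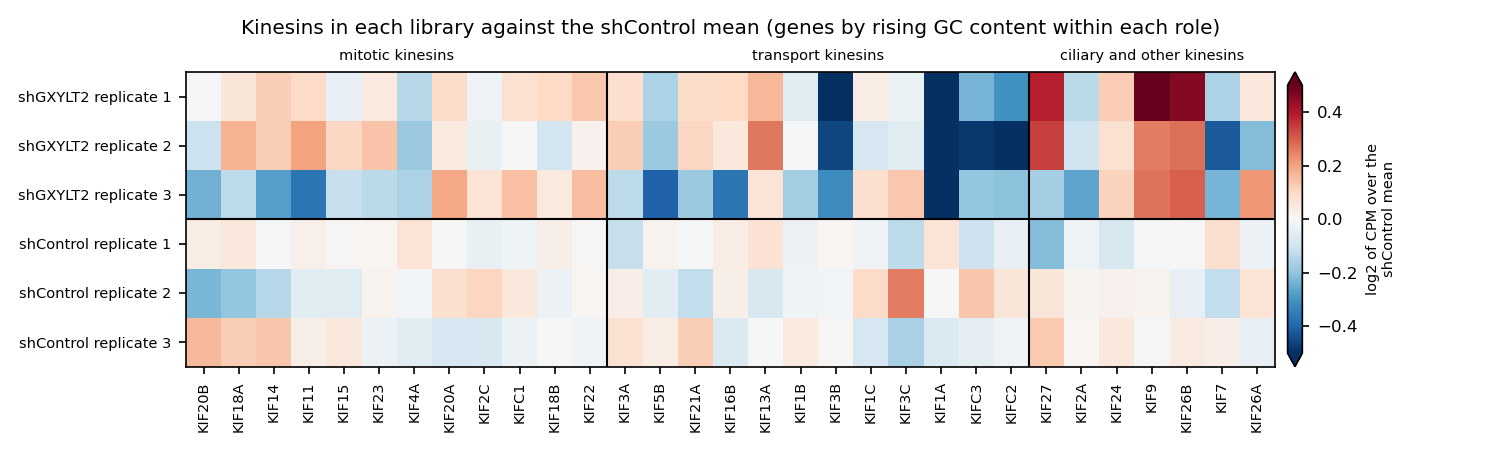
Log2 of CPM over the shControl mean (colour, clipped at both ends) for the kinesins with at least 2 CPM, one row a library, with genes ordered by GC content within each role. In shGXYLT2 replicate 3 the GC-poor mitotic kinesins KIF14 and KIF11 are blue and the GC-rich KIFC1 and KIF22 are red, while KIF1A and KIF3B are blue in all 3 shGXYLT2 libraries.

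The transport kinesins differed in 3 of 15 tested members, all lower in shGXYLT2, and no member was called higher; 6.84% of all tested genes were called lower. Their median log2 fold change was -0.05. KIF1A fell 2.23-fold, KIF3B fell 1.35-fold and KIF5B fell 1.19-fold, and DESeq2 and limma-voom each called 3 transport kinesins as well. In bulk RNA, fewer cells that express a gene and less RNA of that gene per cell cannot be told apart.

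KIF1A, the fast motor of the kinesin-3 family that carries synaptic and dense-core vesicles in neurons, was the member with the largest change. The gene (ENSG00000130294) lies at chr2:240713761-240821036 on the minus strand (GRCh38). It had 18.9, 16.4 and 18.8 CPM in shGXYLT2 and 42.1, 40.1 and 38.2 CPM in shControl, from 402 to 472 counts in shGXYLT2 libraries and 685 to 868 in shControl libraries. The groups were far apart, with no shGXYLT2 value above 18.9 CPM and no control value below 38.2 CPM. The mean was 18 ± 1.41 CPM in shGXYLT2 and 40.1 ± 1.98 CPM in shControl (SD, n = 3 each), and the log2 fold change was -1.16 (SE 0.083, 95% interval -1.33 to -0.98, edgeR adjusted p = 1.3e-08). The neuronal and ciliary marker list moved the other way, at 23.3 to 27.9 CPM summed in shGXYLT2 and 17.8 to 20.6 CPM in shControl; SYT1 and SYP rose, and ELAVL4 and TEKT1 were at 0 in all libraries. SYP was not called by DESeq2 (adjusted p = 0.0882) or with any library but shGXYLT2 replicate 2 left out (edgeR adjusted p up to 0.087). The part of these 10 markers in the KIF1A value was not tested.

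The nearest relatives of KIF1A did not pass the test. KIF1B, which moves mitochondria and synaptic vesicle precursors, had 168, 175 and 156 CPM in shGXYLT2 and 172, 173 and 182 CPM in shControl (log2 fold change -0.08, edgeR adjusted p = 0.441). KIF1C, a motor of integrin and dense-core vesicles, averaged 116 ± 6.74 CPM in shGXYLT2 and 115 ± 7.30 CPM in shControl (edgeR adjusted p = 0.925). Since KIF1A is the least abundant of the 3, their summed level per length was 41.7 ± 0.739 CPM per kilobase in shGXYLT2 and 46.6 ± 0.415 in shControl (SD, n = 3 each). KIF13A, a motor of endosomes and of melanosome cargo, averaged 33.8 ± 2.32 CPM in shGXYLT2 and 30.1 ± 1.6 CPM in shControl, with an unadjusted p of 0.048 and an edgeR adjusted p of 0.191. KIF16B, a motor of early endosomes, averaged 19.4 ± 3.23 CPM in shGXYLT2 and 20.2 ± 0.848 CPM in shControl (edgeR adjusted p = 0.821).

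KIF3B is a motor subunit of heterotrimeric kinesin-2, which carries cargo into cilia and along axons, and its gene lies at chr20:32277664-32335011 on the plus strand. It had 28.01, 29.2 and 32.2 CPM in shGXYLT2 and 40.4, 39.7 and 40.2 CPM in shControl. The control libraries lay close together, and every shGXYLT2 library stood below them. This gave a log2 fold change of -0.43 (SE 0.076, edgeR adjusted p = 8.2e-04). KIF3A, the other motor subunit of the complex, had 30.8, 31.7 and 26.6 CPM in shGXYLT2 and 26.8, 29.8 and 30.7 CPM in shControl (log2 fold change 0.03, edgeR adjusted p = 0.877). The accessory subunit KIFAP3 averaged 49.2 ± 3.29 CPM in shGXYLT2 and 47.2 ± 1.10 CPM in shControl (edgeR adjusted p = 0.649), and KIF3C, which can replace KIF3B, averaged 10.5 ± 0.781 CPM in shGXYLT2 and 10.4 ± 1.76 CPM in shControl (edgeR adjusted p = 0.939). Per length, KIF3B and KIF3C together stood at 6.85 ± 0.500 CPM per kilobase in shGXYLT2 and 8.47 ± 0.203 in shControl, beside 4.71 ± 0.422 in shGXYLT2 and 4.596 ± 0.345 in shControl for KIF3A. The difference between the subunits was not tested.

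KIF5B, the heavy chain of conventional kinesin in most cell types, was the most abundant motor of all, at 86.3 CPM per kilobase over the 6 libraries. Its gene lies at chr10:32009010-32056431 on the minus strand. It had 492, 483 and 415 CPM in shGXYLT2 and 556, 529 and 563 CPM in shControl, with every shGXYLT2 value below the control values and replicate 3 the lowest. Its log2 fold change was -0.25 (SE 0.064, edgeR adjusted p = 0.0157). Without shControl replicate 1 or 3 the adjusted p was 0.0853 or 0.0856, and without shGXYLT2 replicate 3 the log2 fold change was -0.17. The neuronal heavy chains KIF5A and KIF5C were at most 0.234 CPM in any library. The light chains that join KIF5B to its cargo did not pass the test: KLC1 averaged 149 ± 4.22 CPM in shGXYLT2 and 149 ± 1.66 CPM in shControl, and KLC2 averaged 46.8 ± 4.06 CPM in shGXYLT2 and 50.2 ± 1.73 CPM in shControl (edgeR adjusted p = 0.998 and 0.432).

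KIF21A, a slow motor that steadies microtubule growth at the cell cortex, was the second most abundant transport kinesin per length at 25.6 CPM per kilobase, next to KIF1B at 24.4, and had 173, 174 and 143 CPM in shGXYLT2 and 161, 149 and 177 CPM in shControl (edgeR adjusted p = 0.964). The minus-end motors KIFC2 and KIFC3 were low, and both had groups that did not overlap. KIFC2 had 6.43, 5.50 and 6.87 CPM in shGXYLT2 and 7.70, 8.26 and 7.83 CPM in shControl (log2 fold change -0.34, edgeR adjusted p = 0.0957), and KIFC3 averaged 4.77 ± 0.502 CPM in shGXYLT2 and 5.86 ± 0.518 CPM in shControl (edgeR adjusted p = 0.217). KIF13B, KIF17 and KIF21B averaged at most 1.93 CPM in either group, and their 95% intervals reached from -0.86 to 0.95 on the log2 scale.

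**Figure D3:**
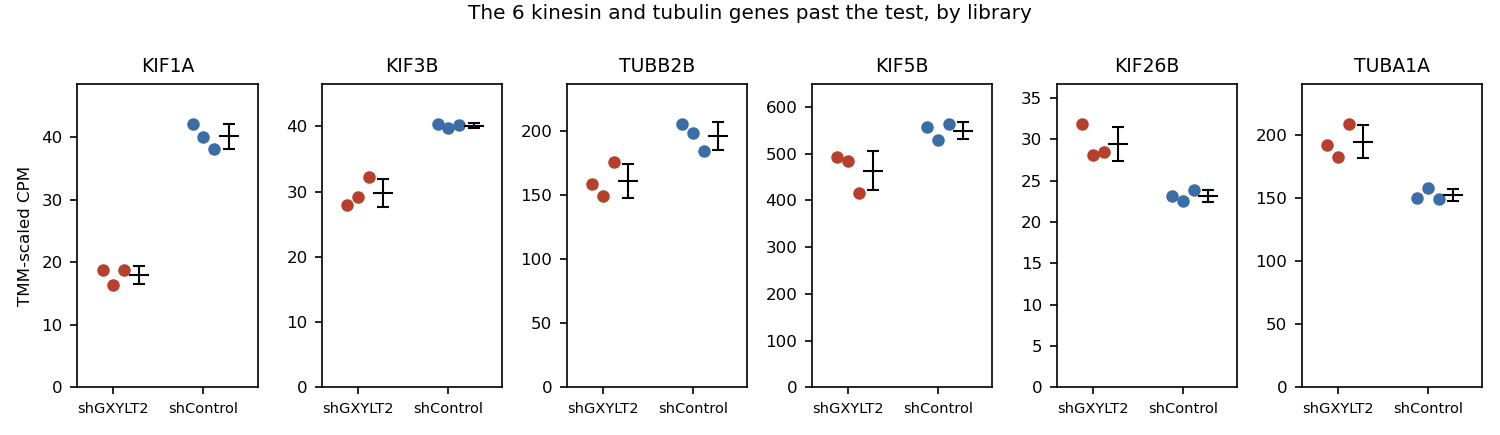
TMM-scaled CPM (vertical axes, each from 0) of the 6 kinesin and tubulin genes past the edgeR test, with 1 point a library, shGXYLT2 left in red and shControl right in blue, and the mean with SD beside the points. The groups do not overlap in any of the 6 panels; KIF1A has the largest fold difference, with 16.4 to 18.9 CPM in shGXYLT2 and 38.2 to 42.1 CPM in shControl.

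Among the ciliary and other kinesins, 1 of 7 tested members was called. KIF26B, a kinesin-11 family member with no ATPase activity that is known from cell adhesion in the developing kidney, rose 1.27-fold, against 5.31% of all tested genes called higher. Its gene lies at chr1:245154985-245709431 on the plus strand. It had 31.8, 28.1 and 28.5 CPM in shGXYLT2 and 23.1, 22.5 and 23.9 CPM in shControl, and the groups did not overlap. The log2 fold change was 0.35 (SE 0.082, edgeR adjusted p = 0.0085); without shGXYLT2 replicate 1 the adjusted p was 0.0618, and without shControl replicate 2 it was 0.0535. Its paralog KIF26A averaged 42.8 ± 6.33 CPM in shGXYLT2 and 41.9 ± 1.80 CPM in shControl (edgeR adjusted p = 0.886).

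Of the other members with this role, KIF2A and KIF7 lay below their controls in every shGXYLT2 library without passing the test. KIF2A, which shortens microtubules at spindle poles and in neurons, had 103, 106 and 94.1 CPM in shGXYLT2 and 111, 114 and 114 CPM in shControl (log2 fold change -0.16, edgeR adjusted p = 0.0951); its adjusted p was 0.037 with the GC content and length offsets. It shares 133278 bases with IPO11 on the same strand and 16686 with DIMT1 on the other. KIF7, which organises the tip of the cilium for Hedgehog signalling, had 18.6, 15.5 and 17.6 CPM in shGXYLT2 and 22.0, 19.0 and 21.2 CPM in shControl (log2 fold change -0.27, edgeR adjusted p = 0.0734). The KIF7 gene shares 22268 bases with TICRR on the opposite strand. KIF24, a motor that keeps cilia from forming on the mother centriole, averaged 20.7 ± 0.385 CPM in shGXYLT2 and 19.3 ± 0.916 CPM in shControl, and its promoter too held TTCGAA, at position 2. KIF9, a motor of motile cilia, averaged 2.79 ± 0.495 CPM in shGXYLT2 and 2.08 ± 0.0236 CPM in shControl (edgeR adjusted p = 0.202).

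Set side by side, the summed CPM of the mitotic kinesins divided by that of the transport kinesins was 1.40, 1.41 and 1.44 in shGXYLT2 libraries and 1.28, 1.27 and 1.25 in shControl libraries. The ratio was thus higher in each shGXYLT2 library than in any shControl library, at 1.42 ± 0.0192 in shGXYLT2 and 1.27 ± 0.0158 in shControl (SD, n = 3 each; 1.12-fold). The mitotic sum was 1566, 1544 and 1427 CPM in shGXYLT2 and 1511, 1459 and 1529 CPM in shControl, which overlap. The transport sum was 1116, 1094 and 991 CPM in shGXYLT2 and 1184, 1148 and 1226 CPM in shControl, which do not. That sum holds the 3 called transport kinesins. Mean TMM-scaled CPM in shGXYLT2 and shControl was 463 and 549 for KIF5B, 18 and 40.1 for KIF1A, and 29.8 and 40.1 for KIF3B. The other 12 tested transport kinesins were not called, and the sum without the 3 called genes was not computed. Per length the mitotic kinesins summed to 410.4 ± 11.8 CPM per kilobase in shGXYLT2 and 402 ± 4.2 in shControl, and the transport kinesins to 171.5 ± 10.9 in shGXYLT2 and 192 ± 6.45 in shControl, which gave a ratio 1.145-fold higher in shGXYLT2. Without KIF11 and KIF5B, the most abundant member of each list, the ratio was 1.069-fold higher. No p is given for this sum, since its members were chosen by role.

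**Figure D4:**
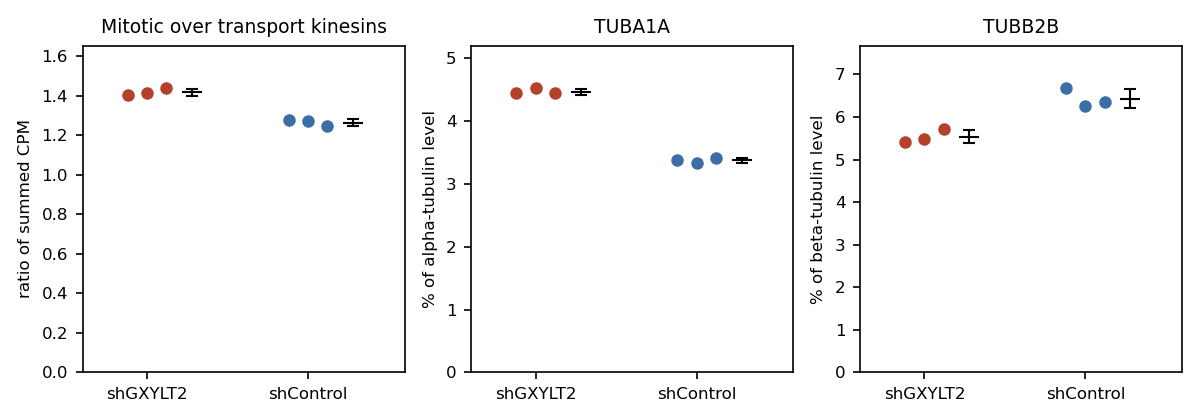
Left, summed CPM of mitotic over transport kinesins; middle, TUBA1A as a percentage of the alpha-tubulin level per length; right, TUBB2B as a percentage of the beta-tubulin level per length, each with 1 point a library, shGXYLT2 left and shControl right, and the mean with SD. The ratio sits at 1.40 to 1.44 in shGXYLT2 and 1.25 to 1.28 in shControl, and the TUBA1A share at 4.44% to 4.53% in shGXYLT2 and 3.34% to 3.42% in shControl.

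Of 14 tested tubulins 1 rose and 1 fell (14.3%, near the 12.2% of all tested genes), and the summed levels of the alpha and beta families overlapped between groups. Their median log2 fold change was -0.10. Per length, alpha-tubulin transcripts summed to 2610 ± 207 CPM per kilobase in shGXYLT2 and 2689 ± 94.7 in shControl, and beta-tubulin transcripts, with TUBB counted in, to 1520 ± 99.2 in shGXYLT2 and 1584 ± 53.6 in shControl (SD, n = 3 each). TUBB, the main beta isotype here, is left out of the members by the naming rule and averaged 2828 ± 161 CPM in shGXYLT2 and 2942 ± 137 CPM in shControl (edgeR adjusted p = 0.587).

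TUBA1B, an alpha tubulin of nearly all cells, was the most abundant member at 2156 CPM per kilobase over the 6 libraries, and had 3423, 3179 and 3713 CPM in shGXYLT2 and 3507, 3747 and 3474 CPM in shControl (edgeR adjusted p = 0.608). TUBA1C had 629.6, 597 and 681 CPM in shGXYLT2 and 684, 737 and 655 CPM in shControl, with a log2 fold change of -0.12 and an edgeR adjusted p of 0.222. TUBA1C was called lower with the GC content and length offsets and without shGXYLT2 replicate 3 (edgeR adjusted p 0.033 at the lowest). TUBA1A, the alpha isotype that predominates in the developing nervous system, rose 1.28-fold. It had 192, 183 and 209 CPM in shGXYLT2 and 149.8, 158 and 149 CPM in shControl, with every shGXYLT2 value above the control values. On the log2 scale the change was 0.35 (SE 0.062, edgeR adjusted p = 7.6e-04).

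As a share of the alpha-tubulin level per length, TUBA1A made up 4.44%, 4.53% and 4.44% in shGXYLT2 and 3.38%, 3.34% and 3.42% in shControl. TUBA1B made up 81.1% in shGXYLT2 and 81.4% in shControl, and TUBA1C 14.4% in shGXYLT2 and 15.1% in shControl. The TUBA1A gene lies at chr12:49184796-49189324 on the minus strand, and its 5′ end shares 589 bases with the locus of TUBA1C on the plus strand. The 3 genes are close copies, though their sequence identity was not computed here, and the counting may have moved reads between them. Summed as 1 feature they gave a log2 fold change of -0.05 with an edgeR adjusted p of 0.655. TUBA1A is a small share of that sum, which mostly follows TUBA1B, so the sum cannot show the direction of TUBA1A. The rise of TUBA1A holds for the counts as deposited, and whether reads moved between the copies was not tested. TUBA4A, an isotype abundant in platelets and muscle, had 1.72, 2.20 and 2.29 CPM in shGXYLT2 and 2.93, 3.05 and 2.9 CPM in shControl (log2 fold change -0.52, edgeR adjusted p = 0.0986).

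TUBB2B, a beta tubulin of neuronal cells whose mutations disturb cortical folding, fell 1.22-fold. It had 159, 149 and 176 CPM in shGXYLT2 and 206, 199 and 185 CPM in shControl, and the groups did not overlap. The log2 fold change was -0.28 (SE 0.066, edgeR adjusted p = 0.0083), and without shControl replicate 1 the adjusted p was 0.0779. Its gene lies at chr6:3224261-3231730 on the minus strand and shares 328 bases with PSMG4 on the plus strand. Summed with its close copy TUBB2A, which averaged 33.9 ± 1.00 CPM in shGXYLT2 and 35.6 ± 1.52 CPM in shControl, it had a log2 fold change of -0.25 and an edgeR adjusted p of 0.0126. TUBB2B made up 5.53% ± 0.156 of the beta-tubulin level per length in shGXYLT2 and 6.42% ± 0.224 in shControl, whereas TUBB made up 74.1% in shGXYLT2 and 73.5% in shControl.

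The other beta tubulins did not pass the test. TUBB4B, the second most abundant beta isotype here and one found in cilia, had 417, 361 and 421 CPM in shGXYLT2 and 411, 424 and 386 CPM in shControl (edgeR adjusted p = 0.854). TUBB3, the neuronal beta isotype often used as a marker of neurons, had 52.3, 45.0 and 49.7 CPM in shGXYLT2 and 55.6, 55.9 and 55.0 CPM in shControl, which did not overlap (log2 fold change -0.18, edgeR adjusted p = 0.106). TUBB4A, TUBB6 and TUBB1 averaged at most 6.81 CPM in either group. The gamma tubulins, which seed microtubules at the centrosome, did not pass the test either: TUBG1 averaged 103 ± 9.30 CPM in shGXYLT2 and 109 ± 6.09 CPM in shControl, and TUBG2 averaged 8.47 ± 1.40 CPM in shGXYLT2 and 7.42 ± 0.356 CPM in shControl (edgeR adjusted p = 0.496 and 0.41).

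**Figure D5:**
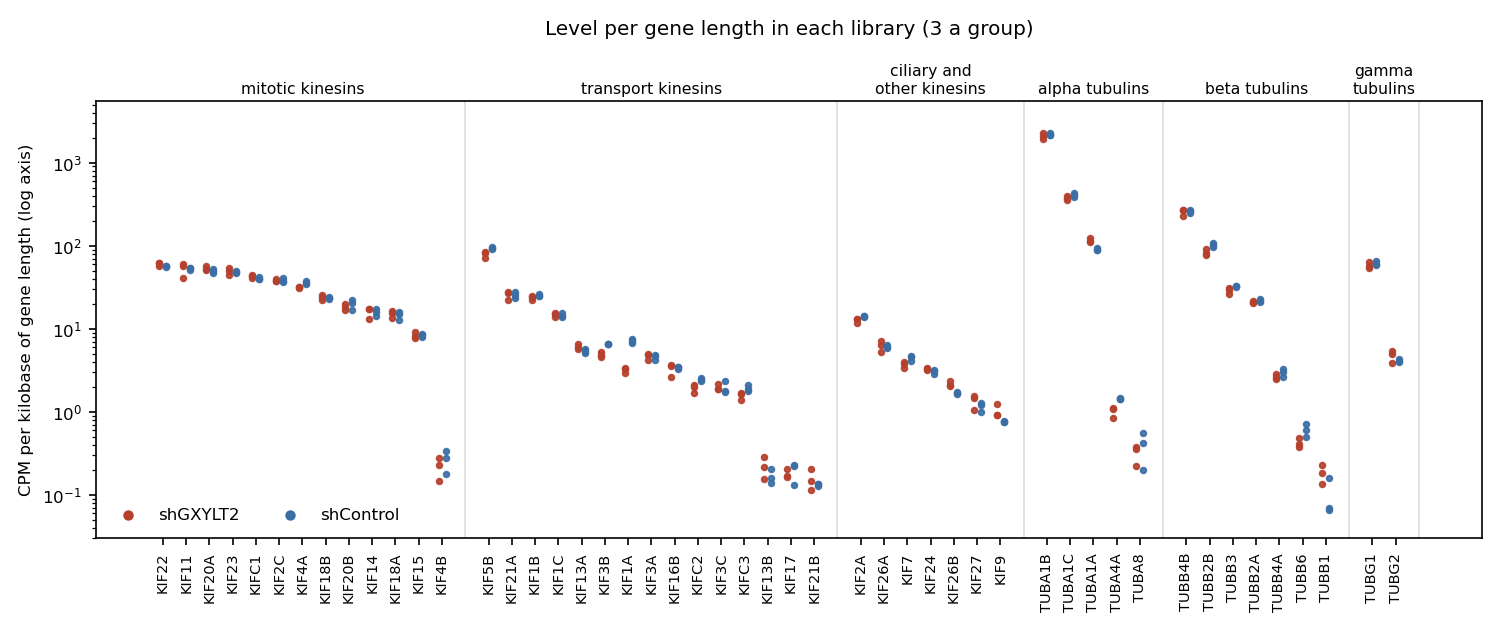
CPM per kilobase of deposited gene length (log axis) of the 49 tested members in each library, shGXYLT2 in red and shControl in blue, ordered by level within each role. TUBA1B stands highest at 2156 over the 6 libraries, KIF5B is the highest kinesin at 86.3, and the red points of KIF1A lie apart from the blue ones.

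The 7-base word GACTCAT had been picked in an earlier analysis of the same libraries for its link to lower transcripts, so its counts describe and do not test. It stood in the annotated 3' UTR of 4 of 48 members searched (8.33%) and of 1033 of 12373 tested genes (8.35%); among all genes with the word 23.8% were called lower, against 6.38% without it. Of the 4 members, KIF3B fell and KIF4A, KIF4B and TUBA1C did not pass the test. In the windows, read 5′ to 3′ along the transcript, capitals mark the word, at base 2522 of the 3692-base UTR of KIF3B, at base 252 of 567 in KIF4A and at base 257 of 1376 in TUBA1C. In a search of every transcript with a coding sequence, the word stood in 3 of 49 members and in 1143 of 12558 genes. The shRNA sequence is not given in the sources used here, and a role of the word was not tested.
KIF3B site: aaagaaaagaaGACTCATttggaaatgaa
KIF4A site: actttcctattGACTCATcaggaaccagt
TUBA1C site: tcgagctcctgGACTCATgtgattctcct

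Beyond the motors and tubulins, lists of genes that load, fold and steer them were counted in the same fit, in which 12.2% of all tested genes were called. Of 14 tested kinesin partners 1 rose and 1 fell (14.3%), near that background. MAPK8IP1, a scaffold that links kinesin-1 to cargo, averaged 6.0 ± 0.746 CPM in shGXYLT2 and 4.02 ± 0.286 CPM in shControl (edgeR adjusted p = 0.0181), and FEZ1, a kinesin-1 adaptor of axons, averaged 1.33 ± 0.283 CPM in shGXYLT2 and 2.33 ± 0.0804 CPM in shControl (edgeR adjusted p = 0.0299). FEZ1 was not called by DESeq2 (adjusted p = 0.0854) or with any library but shGXYLT2 replicate 3 left out, and MAPK8IP1 was not called without shGXYLT2 replicate 1 or shControl replicate 1 or 2; their edgeR adjusted p then reached 0.105 and 0.0992. Of 27 tested dynein and dynactin genes, whose motor runs toward the minus end, 1 rose and 3 fell (14.8%, against 12.2% of all tested genes). The dynein light chain DYNLL1 rose to 204 CPM in shGXYLT2, against 173 CPM in shControl, and the adaptor BICD2 fell to 89.0 CPM in shGXYLT2, against 116 CPM in shControl (edgeR adjusted p = 2.5e-04). The adaptor HOOK3 fell to 76.3 CPM in shGXYLT2, against 91.3 CPM in shControl, and the light chain DYNLT3 to 7.81 CPM in shGXYLT2, against 11.4 CPM in shControl. Without shControl replicate 1 or 3 neither DYNLL1 nor HOOK3 was called (edgeR adjusted p up to 0.117 and 0.128).

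TBCB, a cofactor that helps fold and take apart tubulin dimers, fell 1.90-fold, the largest fall among the called genes of these lists. It had 38.4, 35.5 and 42.2 CPM in shGXYLT2 and 71.5, 76.9 and 72.0 CPM in shControl, with groups far apart (log2 fold change -0.92, SE 0.073, edgeR adjusted p = 4.7e-08). It was the only call among 13 tested folding cofactors (7.69%, against 12.2% of all tested genes). None of 13 tested genes of the gamma-tubulin ring complex and other tubulins was called by edgeR, DESeq2 or limma-voom, with 2 at an unadjusted p below 0.05 in edgeR. Of 26 tested tubulin-modifying and severing genes 2 fell (7.69%, against 6.84% of all tested genes called lower), the severing enzyme SPAST to 40.3 CPM in shGXYLT2, against 57.1 CPM in shControl (edgeR adjusted p = 5.3e-04), and the polyglutamylase TTLL4 to 30.2 CPM in shGXYLT2, against 36.8 CPM in shControl. TTLL4 was not called without shGXYLT2 replicate 1 or shControl replicate 1 or 3 (edgeR adjusted p up to 0.0944).

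Microtubule-associated and tip proteins gave 8 calls in 30 tested genes, 5 upward and 3 downward, or 26.7% beside the background of 12.2%. Without shControl replicate 1 the calls were 3 upward and 2 downward, in a fit that called 990 of 16088 genes. Leaving out 1 library elsewhere gave 6 to 8, in fits that called 960 to 2347 genes. The fit of all 6 libraries called 1907 of 15693. MAP1A and MAP1B, lattice-binding proteins of neurons, fell to 44.9 CPM in shGXYLT2, against 65.0 CPM in shControl, and to 178 CPM in shGXYLT2, against 228 CPM in shControl (edgeR adjusted p = 1.2e-05 and 7.6e-04). CAMSAP2, which caps minus ends, fell to 152 CPM in shGXYLT2, against 182 CPM in shControl, while its relative CAMSAP3 rose to 12.7 CPM in shGXYLT2, against 8.32 CPM in shControl. CAMSAP2 was not called without shControl replicate 1 or 3 (edgeR adjusted p up to 0.136). The plus-end protein MAPRE3 rose to 5.46 CPM in shGXYLT2, against 3.31 CPM in shControl, and the microtubule-binding kinase DCLK1 rose to 1.75 CPM in shGXYLT2, against 0.616 CPM in shControl.

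The mitotic kinesins can be set beside 30 other G2 and M genes, of which 1 rose and 1 fell (6.67%, against 12.2% of all tested genes). These 30 include CENPE, itself a kinesin outside the naming rule, which was not called and was also counted among the kinesin partners. HMMR, a spindle-pole protein, rose to 88.4 ± 8.33 CPM in shGXYLT2, against 70.4 ± 0.230 CPM in shControl (edgeR adjusted p = 0.0042). BUB1B, the spindle checkpoint kinase BUBR1, fell to 138 ± 9.66 CPM in shGXYLT2, against 215 ± 3.68 CPM in shControl (edgeR adjusted p = 6.1e-07). The median log2 fold change over the 30 genes was 0.0065, close to the 0.0044 of the mitotic kinesins and the -0.0057 of all tested genes.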

How the data were processed

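Per the labels' protocols, TRIzol RNA went into a stranded Illumina messenger RNA kit. The submitters' processing notes name fastp, HISAT2, StringTie and the GRCh38.p13 build. Tool versions, tool roles, the counting step and its use of strand: not given in the sources used here. What the authors deposited is a single table of unnormalized estimated counts (12.3% of values not whole) with a gene length, which has no stated definition and served here to compare levels between genes.

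Estimated counts were rounded and analysed with edgeR 4.0.16 in R 4.3.3: filterByExpr by group, TMM factors, a robust quasi-likelihood fit of all 6 libraries on group alone, and two-sided p-values with Benjamini-Hochberg adjustment across 15693 genes. The tested genes held 99.9% of the counts, and the common biological coefficient of variation was 6.5%. CPM values are scaled by TMM factors, but sums over a list use plain library totals. The model was tested on simulated counts. DESeq2 1.42.0 and limma 3.58.1 (voom) were alternatives, with other scalings, filters, GC content and length offsets, close copies summed, and each library left out. No pair of libraries had identical values. By chi-square per degree of freedom of the counts, pairs of shControl libraries differed by 1.98 to 4.02 and pairs of shGXYLT2 libraries by 5.84 to 10.9. Pairs across the groups differed by 8.65 to 18.7. The fit gave each gene the same dispersion in both groups. Positions, GC content and 3' UTRs (at least 100 bases, longest of a gene's protein-coding transcripts) were taken from GENCODE release 29 (GRCh38), where all 66 members were found by identifier; of rows that share a symbol, the most abundant kept it. Promoters came from RefSeq, taking the start listed at the top for each symbol. Figures were drawn with matplotlib 3.10.9.

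The members and lists were chosen with earlier results of these data known. The naming rule took GXYLT2, every called member, the 3 members of each role with the highest level per length, up to 3 risen and 3 fallen genes of each other list (or its most abundant gene), members with the word GACTCAT and, in lists, members below the filter. Other members, CENPE, the kinesin light chains and KIFAP3 were named after their values were seen. The promoter letters, the 2 CPM minimum, the relation to GC content and the restriction of UTRs to protein-coding transcripts were also chosen after the files had been examined. One marker list and one site of the word are not reported here.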

Additional observations from a re-analysis of the deposited data

How the results depend on the processing

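The share of called members rests on 3 libraries a group, and 6 of 49 members were called under both other scalings, DESeq2, limma-voom and the replicate block. Of all 15693 genes, the other scalings called 1873 and 1987, DESeq2 1570 and limma-voom 1798. With no filter 6 of 61 members were called, beside 2095 of 30991 genes. A filter at 1 CPM gave 6 of 44 members, beside 1899 of 13947 genes. The titles' replicate numbers did not pair the samples (correlations of deviations for equal numbers 0.0052, -0.043 and -0.023). They differ from the numbers of the deposited columns, sh2_1, sh2_3 and sh2_4 for shGXYLT2 and shC_1, shC_2 and shC_4 for shControl. The gaps in those column numbers are not explained in the sources used here. With the titles' replicate number as a block 1471 genes were called in place of 1907, 6 of them members. GC content and length offsets called 3012 genes and 9 members, the 6 named above plus KIF2A, KIF4A and TUBA1C. Summing close copies called 5 members. The sum of TUBA1A, TUBA1B and TUBA1C had a log2 fold change of -0.051, which cannot show the direction of TUBA1A, a small share of it. Leaving out 1 library at a time called 960 to 2347 genes, 4 to 9 members, 2 to 3 transport kinesins and 1 to 3 tubulins; the lowest gene count was without shControl replicate 3 and the highest without shGXYLT2 replicate 3. TUBB2B missed the threshold without shControl replicate 1, which left 1 tubulin called. Mitotic kinesins called were 0 in the reported edgeR fit (1 at an unadjusted p below 0.05), 0 in DESeq2 and limma-voom, 1 (KIF4A) with the offsets and 0 to 2 with a library left out (KIF4A and KIF11 without shGXYLT2 replicate 3). The offsets called 1 kinesin partner higher and 3 lower, 1 tubulin-modifying gene higher and 4 lower, and 4 G2 and M genes higher and 1 lower. Of the gamma-tubulin ring complex and other tubulins, the offsets called 2 genes lower, and the fit without shGXYLT2 replicate 2 called 1 lower. KIF1A, KIF3B and GXYLT2 kept their direction and stayed past the threshold under every alternative that gave them a test.

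KIF11 had log2 fold changes on both sides of 0: 0.019 with upper-quartile factors, 0.016 with no filter, 0.00067 with a filter at 1 CPM in 3 libraries, 0.0094 with the offsets, and -0.12 to 0.15 with a library left out. Left-out libraries also gave -0.049 to 0.098 for KIF21A, -0.071 to 0.13 for KIF26A and -0.062 to 0.041 for TUBB4B, none past the threshold. The ratio of mitotic to transport kinesins was 1.145-fold higher in shGXYLT2 per length, 1.069-fold higher without KIF11 and KIF5B, 1.113-fold higher with KIF2A counted as mitotic, and 1.113 to 1.127-fold higher with a library left out.

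Medians of log2 fold change moved as follows. With no filter they were 0.17 for ciliary and other kinesins, 0.058 for kinesin partners, 0.071 for microtubule-associated proteins, 0.048 for tubulin modification and 0.48 for neuronal and ciliary markers, which had 0.46 with a filter at 1 CPM. With the offsets they were 0.16 for ciliary and other kinesins, 0.037 for kinesin partners, -0.092 for other tubulins and -0.0016 for tubulin modification. With upper-quartile factors they were 0.042 for kinesin partners, 0.063 for microtubule-associated proteins and 0.038 for tubulin modification. With a library left out they ran from 0.067 to 0.13 for ciliary and other kinesins, -0.0083 to 0.019 for kinesin partners, -0.10 to -0.028 for other tubulins, 0.016 to 0.053 for folding cofactors, 0.028 to 0.052 for microtubule-associated proteins, -0.017 to 0.020 for tubulin modification, -0.0094 to 0.051 for G2 and M genes and 0.21 to 0.54 for neuronal and ciliary markers. The causes were not tested. Depth limits the low members most: the 95% interval of TUBB1, at under 1 CPM, ran from -0.02 to 1.88 on the log2 scale.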
